A study of Homo sapiens with 13 samples.

Results

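The DNA replication genes are 47 genes whose products find and license replication origins, unwind the DNA, copy it and supply the deoxynucleotides for copying. They were taken by symbol, each through the probe set with the highest mean over the arrays among those annotated to that symbol alone. All 47 were measured, among 18568 genes with such a probe set, and each lay above the median of its array in all 13 lines. They were measured in acute lymphoblastic leukemia (ALL) cell lines without treatment, with 1 Affymetrix HG-U133 Plus 2.0 array for each of 7 T-ALL lines (ALL-SIL, CCRF-CEM, HPB-ALL, Jurkat, Molt4, P12-ICHIKAWA and TALL-1) and 6 B-cell precursor (BCP-ALL) lines (697, Nalm6, REH, RS4,11, Nalm16 and Nalm30). All lines grew in RPMI-1640 with fetal bovine serum, with no drug given. RNA was taken from bulk cultures, in which fewer cells in S phase and less RNA per cell cannot be told apart. Each line has 1 array and was taken as the replicate, so p-values measure the spread between lines. The arrays of P12-ICHIKAWA and TALL-1 were nearly alike (r = 0.993), so these lines may not be independent replicates. Values are the deposited log2 values, made after 16 was added to each signal, so that none can be under 4 and fold changes of dim genes are understated.

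Replication starts at origins bound by the origin recognition complex (ORC), which with CDC6 and CDT1 loads the MCM helicase before S phase. The kinase CDC7 with its activator DBF4, together with MCM10, CDC45 and the GINS complex, turns the loaded helicase into a moving fork. Polymerases alpha, delta and epsilon then copy the strands, held by the sliding clamp PCNA, which the RFC complex loads, while RPA covers single-stranded DNA. Many of these genes are known targets of E2F transcription factors, which switch them on as cells enter S phase. Methotrexate (MTX), the drug whose potency the study measured in the same lines, is an antifolate that starves S phase cells of thymidylate and purines.

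The lines carried the markers of their lineage. The mean over 8 measured B lineage markers ran from 4.65 to 5.98 in T-ALL lines and from 10.11 to 10.66 in BCP-ALL lines, and that over 9 T lineage markers from 8.72 to 10.07 in T-ALL lines and from 4.68 to 5.25 in BCP-ALL lines. Means over 5 myeloid and erythroid markers (5.67 to 5.95 in T-ALL, 5.90 to 7.24 in BCP-ALL) and 4 fibroblast markers (5.11 to 5.45 in T-ALL, 5.24 to 5.49 in BCP-ALL) were lower, but single myeloid genes were high in single BCP-ALL lines, with MPO at 12.11 in REH and LYZ at 11.20 in Nalm6. Their part in the results was not tested. Array medians ran from 5.05 to 5.37, lowest in Nalm16. The arrays of P12-ICHIKAWA and TALL-1 correlated at r = 0.993 over all probe sets, those of Nalm16 and Nalm30 at 0.959, and the least alike pair at 0.770. Nalm16 and Nalm30 stand apart in many genes, so values without them stand beside many of the lineage differences. Of the slopes of single genes, only that of DBF4 and the slope differences of DBF4 and RFC1 are given without them. Other slopes may rest on them as well.

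The promoters of the replication genes were read from RefSeq (GRCh38.p14), as the 250 bases before and 50 after each start site, for the 41 genes the table held. The letters of the E2F motif (TTTCCCGC, TTTCGCGC, TTTGCCGC or TTTGGCGC, on either strand, in any of a gene's windows) occurred in 20 of the 41 (48.8%), against 6.52% of 10187 tested genes with a promoter in the table and 3.31% of all 35116 promoter windows. The genes with such a form were ORC3, CDC6, CDT1, GMNN, MCM2, MCM3, MCM6, MCM7, GINS1, GINS2, GINS3, CDC7, POLA1, POLA2, POLE, POLE2, PCNA, RFC3, LIG1 and DUT. By role, that is all 4 MCM subunits and all 3 licensing factors in the table, but 1 of 6 ORC subunits. CCAAT, read on either strand, occurred in 24 of the 41 (58.5%), against 43.3% of the tested genes, and both motifs in 11 (26.8%), against 2.62%. A match describes the letters and is no evidence of binding. The windows below show members with many matches (MCM6, PCNA, CDC6), and the pair whose values differed most between lines, TK1 with CCAAT only and DBF4 with neither. Capitals mark the E2F forms and CCAAT on either strand, and in MCM6 forms on opposite strands overlap, giving 4 matches at 2 places.
MCM6, chr2:135876394-135876693, minus strand: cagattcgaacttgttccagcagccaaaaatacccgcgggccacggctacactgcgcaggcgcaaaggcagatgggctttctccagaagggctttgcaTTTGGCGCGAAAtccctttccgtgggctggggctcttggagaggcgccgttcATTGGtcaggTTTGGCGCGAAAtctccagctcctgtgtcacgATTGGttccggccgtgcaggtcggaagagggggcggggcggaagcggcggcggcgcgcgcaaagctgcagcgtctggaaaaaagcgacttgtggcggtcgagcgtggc
PCNA, chr20:5126573-5126872, minus strand, the upstream of 2 windows in the table: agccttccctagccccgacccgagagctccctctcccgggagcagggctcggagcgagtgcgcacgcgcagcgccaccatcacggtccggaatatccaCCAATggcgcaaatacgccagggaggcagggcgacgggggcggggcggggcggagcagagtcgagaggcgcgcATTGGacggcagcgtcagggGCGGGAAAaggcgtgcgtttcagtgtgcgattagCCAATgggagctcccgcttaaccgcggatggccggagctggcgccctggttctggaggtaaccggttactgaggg
CDC6, chr17:40287629-40287928, plus strand: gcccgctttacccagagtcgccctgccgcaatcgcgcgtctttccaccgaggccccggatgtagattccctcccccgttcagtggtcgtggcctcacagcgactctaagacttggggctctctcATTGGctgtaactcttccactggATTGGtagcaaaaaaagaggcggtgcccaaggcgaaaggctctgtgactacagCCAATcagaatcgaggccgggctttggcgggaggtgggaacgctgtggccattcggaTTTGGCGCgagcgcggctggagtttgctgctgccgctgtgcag
TK1, chr17:78187003-78187302, minus strand, the downstream of 2 windows in the table: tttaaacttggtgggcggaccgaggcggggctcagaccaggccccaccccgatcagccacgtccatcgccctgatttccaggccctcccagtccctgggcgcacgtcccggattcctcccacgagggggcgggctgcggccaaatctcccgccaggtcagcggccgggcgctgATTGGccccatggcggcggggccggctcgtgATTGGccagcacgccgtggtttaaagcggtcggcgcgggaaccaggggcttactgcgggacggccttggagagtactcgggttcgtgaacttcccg
DBF4, chr7:87876243-87876542, plus strand: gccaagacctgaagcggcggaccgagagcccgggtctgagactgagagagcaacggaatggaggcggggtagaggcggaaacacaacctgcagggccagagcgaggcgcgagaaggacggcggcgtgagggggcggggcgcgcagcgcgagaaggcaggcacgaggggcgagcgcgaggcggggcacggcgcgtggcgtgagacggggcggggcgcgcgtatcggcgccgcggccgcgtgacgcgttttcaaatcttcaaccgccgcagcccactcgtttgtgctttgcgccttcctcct

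The replication genes varied less from line to line than the genes tested, though only 15 of the 47 kept within 1 log2 unit over the 13 lines. The SD over the 13 lines had a median of 0.38 log2 over the 47 genes and 0.52 over all 12560 genes tested. An SD of 0.3 or less was found in 15 of 47 (31.9%), against 16.6% of genes tested, and an SD above 0.5 in 12 (25.5%), against 52.6%. All 47 lay above the array median in all 13 lines, whereas a gene needed only 3 such lines to be tested. Whether this accounts for the lower SD was not tested. The steadiest was DUT, the dUTPase that keeps uracil out of DNA, which ran from 11.58 in P12-ICHIKAWA to 12.10 in CCRF-CEM (SD 0.15). POLA2, a subunit of polymerase alpha, POLD1, the catalytic subunit of polymerase delta, and the helicase subunit MCM2 followed, each with an SD of 0.24. The median SD was 0.31 in the 20 genes with an E2F form in the promoter and 0.41 in the 21 without. At the other end stood DBF4 (SD 1.21), TK1 (1.14), the clamp loader's large subunit RFC1 (0.96), ORC3 (0.94), CDC7 (0.77) and GMNN (0.64), the last encoding geminin, which blocks CDT1. DBF4, RFC1, ORC3, CDC7 and GMNN had their lowest value in Nalm16, and TK1 in TALL-1.

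**Figure D1:**
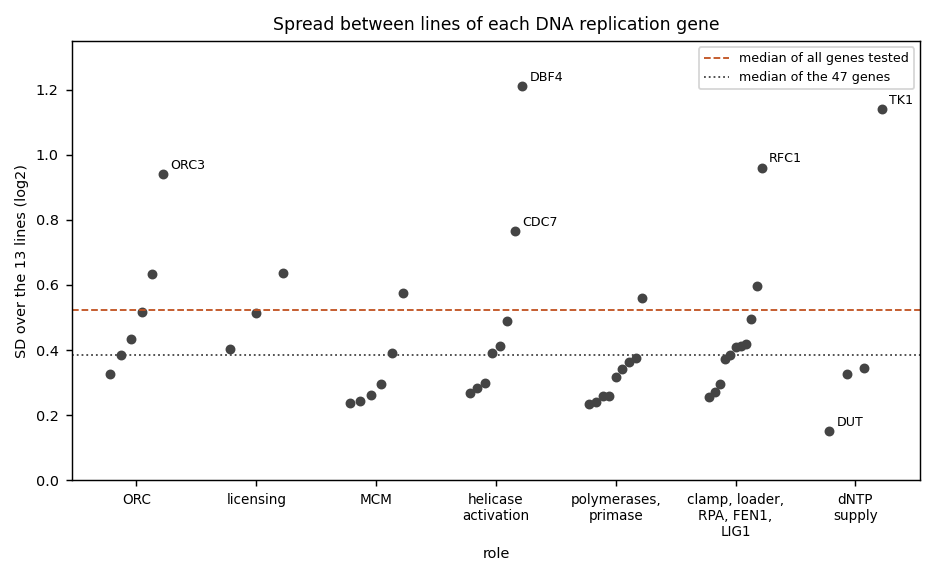
SD over the 13 lines (log2, vertical axis) of each of the 47 genes, grouped by role along the horizontal axis, with dashed and dotted lines at the medians of all genes tested (0.52) and of the 47 genes (0.38). DBF4, TK1, RFC1, ORC3 and CDC7 lie above 0.7, and DUT lies lowest at 0.15.

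**Figure D2:**
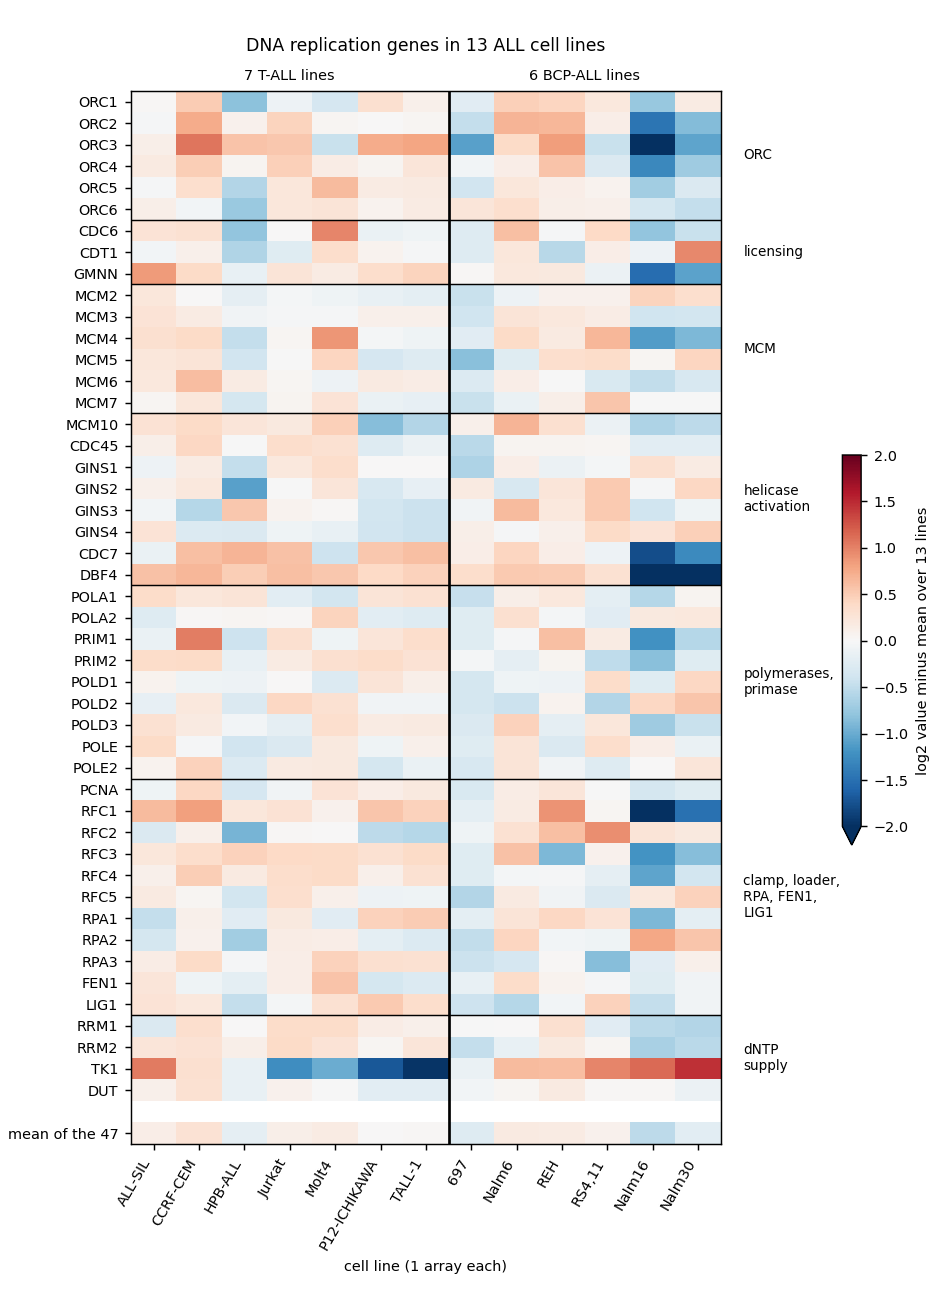
Log2 value of each of the 47 genes (rows, grouped by role) in each line (columns, 7 T-ALL left and 6 BCP-ALL right) minus that gene's mean over the 13 lines, with the mean over the 47 genes in the bottom row. The darkest blue also stands for differences below -2, which ORC3, RFC1 and DBF4 reached in Nalm16 and DBF4 in Nalm30. Nalm16 and Nalm30 are low in DBF4, RFC1, CDC7, GMNN, ORC2 and ORC4, and TK1 is low in Jurkat, Molt4, P12-ICHIKAWA and TALL-1.

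The level of the whole group, taken in each line as the mean over the 47 genes of the value minus that gene's own mean, ran from 0.29 in CCRF-CEM to -0.52 in Nalm16. In T-ALL it was 0.29 in CCRF-CEM, 0.16 in Molt4, 0.14 in ALL-SIL, 0.12 in Jurkat, 0.02 in TALL-1, 0.00 in P12-ICHIKAWA and -0.17 in HPB-ALL. In BCP-ALL it was 0.18 in Nalm6, 0.16 in REH, 0.08 in RS4,11, -0.21 in Nalm30, -0.25 in 697 and -0.52 in Nalm16. The lineages overlapped, with 0.08 ± 0.15 in T-ALL (SD, n = 7) and -0.09 ± 0.28 in BCP-ALL (SD, n = 6). CCRF-CEM held the highest value of 12 genes (25.5%), against 6.49% of genes tested, among them ORC1, ORC2, ORC3, PCNA and PRIM1. After quantile normalization it was 8 (17.0%, against 3.88%) and with arrays centred on their medians 6 (12.8%, against 4.14%), with ORC3 and PRIM1 in both and ORC1 and ORC2 in neither. In Nalm16 the same mean over all genes tested was also low, at -0.31, and the difference between 3′ and 5′ probe sets of GAPDH, a sign of RNA integrity, was the largest of the 13 lines (0.21, against -0.07 to 0.18 in the others). That of actin was 0.40 in Nalm16, within the 0.09 to 0.57 of the others. After quantile normalization the level of the group in Nalm16 was -0.19. The part of RNA quality and scaling in this line's values was not tested further.

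697 and HPB-ALL were also among the lines with low levels. Each gene was counted only for the line that held its lowest value. The genes counted for 697, HPB-ALL and Nalm16 therefore cannot overlap, and the lists do not show whether these lines are low in different genes. 697 held the lowest value of 7 genes (14.9%, against 9.75% of genes tested), the helicase subunits MCM2, MCM5 and MCM7 with CDC45, GINS1, POLD1 and RFC5. HPB-ALL held the lowest value of 8 (17.0%, against 9.75%), among them ORC1, ORC6, CDC6 and CDT1, which load the helicase, and GINS2 and RFC2. Nalm16 held the lowest value of 20 (42.6%), against 27.7% of genes tested, among them ORC2, ORC3, ORC4 and ORC5. The counts moved with the scaling. For Nalm16 it was 10 after quantile normalization (21.3%, against 18.2% of genes tested) and 13 with arrays centred on their medians (27.7%, against 21.9%), without ORC5 in both. For 697 it was 6 (12.8%, against 8.84%) and 14 (29.8%, against 14.1%), and for HPB-ALL 8 (17.0%, against 9.2%) and 7 (14.9%, against 8.14%). HPB-ALL kept ORC1, ORC6 and CDC6 under both other scalings, but CDT1 was then lowest in REH. In MCM5 the value was 9.69 in 697, against 10.14 to 10.95 elsewhere. In GINS2 it was 8.83 in HPB-ALL, against 9.59 to 10.43 elsewhere.

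Nalm16 and Nalm30 both lay under all other lines in 13 of 47 genes (27.7%), against 20.5% of genes tested, and both above all others in 4 (8.51%), against 12% of genes tested. The genes under were ORC2, ORC4, GMNN, MCM4, MCM6, CDC7, DBF4, PRIM1, POLD3, RFC1, RFC4, RRM1 and RRM2, and those above were MCM2, POLD2, RPA2 and TK1. These lines were set apart after their values had been seen, so no test was made. After quantile normalization the 13 became 11 (23.4%, against 16.2% of genes tested), and with arrays centred on their medians 9 (19.1%, against 16.6%). The 4 above became 6 under both scalings, with GINS4 and RFC5 added (12.8%, against 22.9% and 18.4% of genes tested). Over all genes tested the pair was more often under than above as deposited, but more often above than under after either other scaling. DBF4, which turns CDC7 into an active kinase, was the extreme case. It was 6.17 in Nalm16 and 6.70 in Nalm30, whereas in the other 11 lines it kept between 9.44 and 9.80, with an SD of 0.11. Its partner CDC7 was 6.88 in Nalm16 and 7.39 in Nalm30, against 8.25 to 9.34 in the other 11. RFC1, the replication factor and not the folate carrier that shares the abbreviation, was 6.17 in Nalm16 and 7.16 in Nalm30, against 8.47 to 9.56. GMNN was 8.71 and 9.16 in those lines, against 10.08 to 11.08. No other member separated these lines from the rest as widely. A second probe set of RFC1 gave the same order, with 6.26 in Nalm16 and 6.87 in Nalm30, against 8.18 to 9.14, and the remaining one was near the floor in all lines. DBF4 and CDC7 have 1 probe set each.

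Set against lineage, none of the 47 genes passed the test (limma, Benjamini-Hochberg over all 12560 genes, adjusted p at or under 0.05), against 7.63% of genes tested. At an unadjusted p under 0.05, 8 were higher in T-ALL (17.0%, against 15.1% of genes tested) and 3 lower (6.38%, against 10.1%). The estimate was positive in 32 genes (68.1%, against 53% of genes tested) and negative in 15, with a median of 0.16 over the 47 and 0.03 over all genes. With quantile normalization 26 were positive and 21 negative, with a median of 0.05 over the 47 and -0.05 over all genes. The groups did not overlap in 1 gene, RFC4, or 2.13% of the 47, against 3.69% of genes tested. Most of these shares are near or below those over all genes. With P12-ICHIKAWA and TALL-1 averaged into 1 line, none of the 47 passed, against 4.86% of genes tested in the same fit. The calls moved with single lines: 5 genes passed without REH (ORC3, PRIM2, RFC4, RPA3 and RRM2; 10.6%, against 9.74% of genes tested in the same fit). Without Nalm6, 2 passed (RFC3 and RFC4; 4.26%, against 7.99%). In 3 further fits 1 gene passed, or 2.13%: RFC2 without 697 (against 7.11%), TK1 without ALL-SIL (6.78%) and PRIM2 without HPB-ALL (7.1%).

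**Figure D3:**
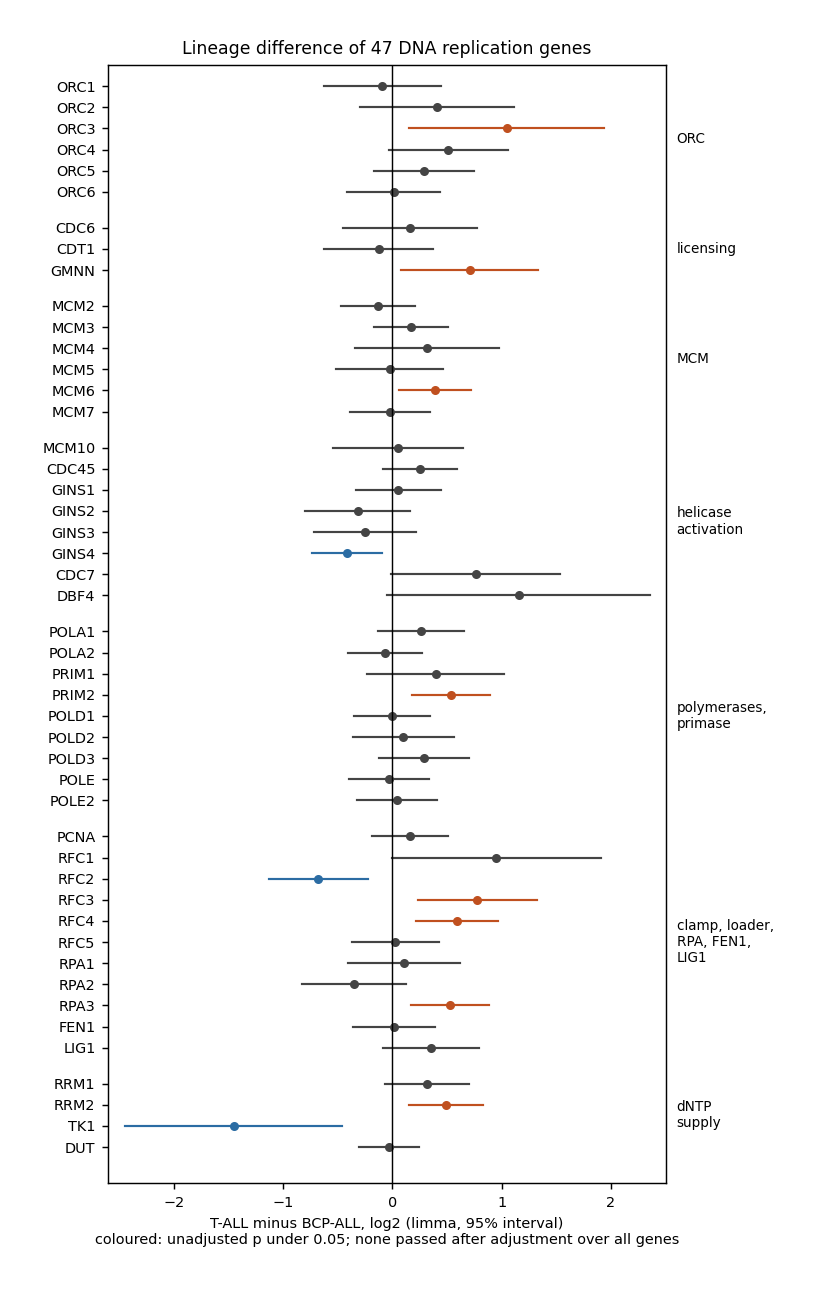
T-ALL minus BCP-ALL (log2, horizontal axis) with 95% intervals from limma for each of the 47 genes, grouped by role, 7 T-ALL against 6 BCP-ALL lines. Coloured points have an unadjusted p under 0.05, 8 above 0 and 3 below, and none passed after adjustment over all genes.

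Among the clamp loader subunits the estimates ran in opposite directions. RFC4 had 10.02, 10.23 and 10.40 in T-ALL (lowest, median and highest) and 8.86, 9.70 and 9.90 in BCP-ALL, so every T-ALL line lay above every BCP-ALL line. The difference was 0.60 log2 (SE 0.17, limma adjusted p = 0.0540), or 0.40 without Nalm16 and Nalm30, over a range of adjusted p of 0.0328 to 0.101 in alternative analyses. RFC3 had 9.81, 9.96 and 10.05 in T-ALL and 8.39, 9.04 and 10.17 in BCP-ALL, with a wider range in BCP-ALL (difference 0.78, SE 0.25, adjusted p = 0.0784, and 0.48 without Nalm16 and Nalm30). RFC2, another small subunit, had 8.24, 8.87 and 9.27 in T-ALL and 9.08, 9.45 and 10.09 in BCP-ALL (difference -0.68, SE 0.21, adjusted p = 0.0673). Its second probe set gave -0.63. RFC1 differed by 0.95 (SE 0.44, adjusted p = 0.199) with Nalm16 and Nalm30 and by 0.21 without them. RFC5 differed by 0.03 (95% interval -0.37 to 0.43), and by 0.21 without those lines. Its other probe sets gave -0.05 and -0.57, and correlated with this one at 0.89 and 0.17. The lineage difference of RFC5 therefore rests on the probe set. The sliding clamp itself, PCNA, had 11.16, 11.63 and 11.91 in T-ALL and 11.15, 11.37 and 11.74 in BCP-ALL, which overlap over most of their range. Of the RPA subunits, RPA3 had 10.51, 10.84 and 10.99 in T-ALL and 9.69, 10.26 and 10.64 in BCP-ALL (difference 0.53, SE 0.17, adjusted p = 0.0686), while RPA1 differed by 0.11 and RPA2 by -0.35, with intervals that include 0 (-0.14 and -0.12 without Nalm16 and Nalm30). FEN1 and LIG1, which trim and seal Okazaki fragments, differed by 0.01 (-0.36 to 0.39) and 0.35 (-0.09 to 0.79).

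**Figure D4:**
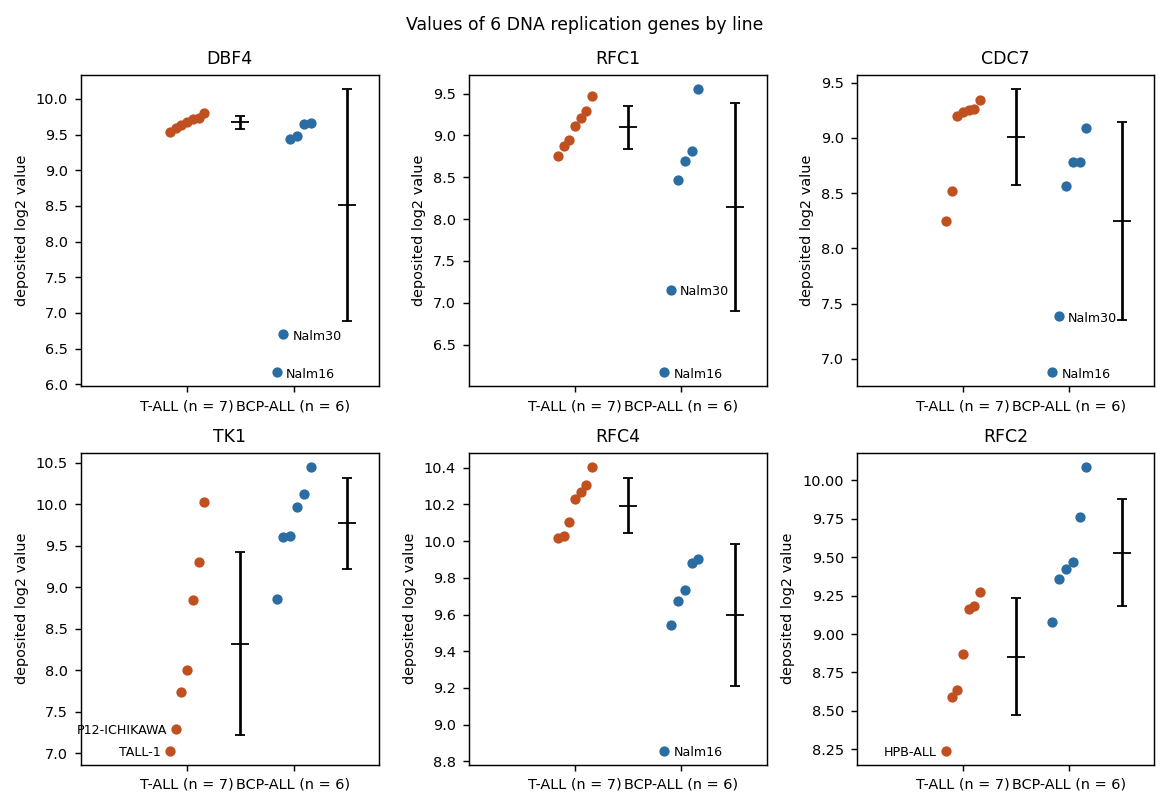
Deposited log2 value (vertical axis, each panel with its own scale) of DBF4, RFC1, CDC7, TK1, RFC4 and RFC2 in each line, 7 T-ALL left and 6 BCP-ALL right, with mean and SD as a bar beside the points. DBF4 is 9.44 or more in all lines but Nalm16 and Nalm30, and in RFC4 the lowest T-ALL line (10.02) lies above the highest BCP-ALL line (9.90).

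TK1, the thymidine kinase that salvages thymidine for DNA, had the largest lineage difference of the 47 genes. It had 7.03, 7.998 and 10.03 in T-ALL and 8.86, 9.79 and 10.45 in BCP-ALL (difference -1.45, SE 0.46, adjusted p = 0.0735). Within T-ALL it spread widely, with 7.03 in TALL-1, 7.29 in P12-ICHIKAWA, 7.74 in Jurkat and 7.998 in Molt4, with 8.85 in HPB-ALL just under the lowest BCP-ALL line (697, 8.86), and with 9.30 in CCRF-CEM and 10.03 in ALL-SIL. A second TK1 probe set correlated with the first at 0.99 over the lines and gave -1.33. Without ALL-SIL, the T-ALL line with the highest TK1, the difference was -1.73 and passed the test (adjusted p = 0.0196). Without Nalm16 and Nalm30, the lines with the highest TK1, it was -1.19 and did not pass (limma adjusted p = 0.259). The ribonucleotide reductase subunits that make deoxynucleotides ran the other way. RRM2 had 11.20, 11.41 and 11.54 in T-ALL and 10.51, 10.85 and 11.35 in BCP-ALL (difference 0.49, SE 0.16, adjusted p = 0.0777), and RRM1 differed by 0.32 (-0.07 to 0.70). Without Nalm16 and Nalm30 the differences were 0.32 in RRM2 and 0.12 in RRM1. DUT differed by -0.03 (-0.30 to 0.25).

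Of the ORC subunits, ORC3 had 7.44, 8.47 and 8.97 in T-ALL and 5.86, 7.15 and 8.73 in BCP-ALL (difference 1.05, SE 0.42, adjusted p = 0.138, and 0.56 without Nalm16 and Nalm30). It was low in 697 (6.81) as well as in Nalm16 (5.86) and Nalm30 (6.84). ORC1, an ATPase subunit, had 7.12, 7.96 and 8.44 in T-ALL and 7.17, 8.13 and 8.41 in BCP-ALL, with no lineage difference beyond the spread (-0.09, -0.63 to 0.44, and -0.27 without Nalm16 and Nalm30). Among licensing factors, GMNN had 10.08, 10.59 and 11.08 in T-ALL and 8.71, 10.18 and 10.44 in BCP-ALL (difference 0.71, SE 0.29, adjusted p = 0.152, and 0.25 without Nalm16 and Nalm30). CDT1 had 8.46, 9.05 and 9.42 in T-ALL and 8.51, 9.08 and 10.02 in BCP-ALL, but its second probe set correlated with this one at only 0.05, so its pattern rests on the probe set. CDC6 differed by 0.16 (-0.45 to 0.77), and by -0.11 without those lines.

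The 6 MCM subunits, which form the ring of the helicase, had a median SD of 0.28, the lowest of the 7 role groups, from 0.24 in MCM2 to 0.58 in MCM4. MCM6 had 11.07, 11.33 and 11.79 in T-ALL and 10.68, 10.88 and 11.31 in BCP-ALL. Its difference was 0.39 (SE 0.15, limma adjusted p = 0.134), and 0.29 without Nalm16 and Nalm30. MCM2, MCM5 and MCM7 differed by -0.13, -0.02 and -0.02, with intervals no wider than 0.51 to either side of 0 (0.03, 0.09 and -0.04 without Nalm16 and Nalm30). Of the GINS subunits, GINS4 had 7.43, 7.58 and 8.13 in T-ALL and 7.84, 8.06 and 8.33 in BCP-ALL. The difference was -0.41 (SE 0.15, limma adjusted p = 0.106), and -0.34 without Nalm16 and Nalm30. The 3 other probe sets of GINS4 were dimmer and correlated with this one at -0.05, 0.09 and 0.61. DBF4 differed by 1.15 (SE 0.56, adjusted p = 0.215) with Nalm16 and Nalm30 and by 0.11 without them. Among polymerase genes, PRIM2, the large primase subunit, had 7.57, 8.03 and 8.11 in T-ALL and 6.89, 7.51 and 7.77 in BCP-ALL. Its difference was 0.54 (SE 0.17, limma adjusted p = 0.0658), and 0.42 without Nalm16 and Nalm30. The catalytic subunits POLA1, POLD1 and POLE differed by 0.26, -0.00 and -0.03, each with an interval that includes 0.

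Across the lines the replication genes moved together only in part. The median Pearson r over the 1081 pairs was 0.26, against 0.02 over pairs of all genes tested. It was 0.30 with the lineage means removed and 0.29 without Nalm16 and Nalm30. These correlations share 13 arrays and are given as a description. Within roles, pairs of ORC subunits had the highest median r (0.60), followed by pairs of MCM subunits (0.38). Pairs of polymerase and primase genes (0.09) and of helicase activation genes (0.09) had the lowest. Across roles the highest were licensing factors with ORC subunits (0.50) and MCM with ORC subunits (0.40), both above the value within MCM. These medians include Nalm16 and Nalm30. ORC5, PCNA and CDC6 had the highest mean r with the other 46 members (0.44, 0.41 and 0.40), and GINS4, TK1 and MCM2 the lowest (-0.14, -0.10 and -0.04). The closest pairs were DBF4 with RFC1 and ORC4 with RFC1, both at 0.95, which became 0.55 and 0.71 without Nalm16 and Nalm30. CDC6 with MCM4 was 0.92 with all lines and 0.95 without those lines, and ORC5 with PCNA 0.90 and 0.86. CDC7, by contrast, was 0.90 with DBF4 over all lines and 0.18 without the low pair.

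The genes of the whole array most like the mean level of the 47 were PBX2 (r = 0.94), CMIP (0.94), OSTF1 (0.93), WDR90 (0.93), NUP62 (0.93), RPF2 (0.93), WDR19 (0.92) and INIP (0.91) over 13 lines. All 8 had their lowest value in Nalm16, as had 27.7% of genes tested. They were picked by r with a level that was itself lowest in Nalm16, so this follows largely from the choice.

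Expression in untreated cells was set against resistance to MTX, as the IC50 of each line after 48 or 96 h of drug. In the study the 48 h IC50 was tightly correlated with the doubling time of the lines, and the 96 h IC50 was not. Growth rate and resistance therefore cannot be told apart in the 48 h slopes. Slopes are log2 units per 10 nM of IC50, over 13 lines. Against the 96 h IC50 no replication gene passed the test (0% of genes tested passed). The slope was negative in 41 of 47 (87.2%), against 55.7% of genes tested, with a median of -0.10 over the 47 and -0.02 over all genes. The count of negative slopes was 33 without Nalm16 and 34 without HPB-ALL, against 48.1% and 51.4% of genes tested negative in the same fits, and 34 after quantile normalization, against 46.2%. Only ORC1 had an unadjusted p under 0.05, 2.13% of the 47, against 1.69% of genes tested with a negative slope (slope -0.32, SE 0.09, adjusted p = 0.998). RFC1 had a slope of -0.34 (95% interval -0.86 to 0.18) and DBF4 of -0.25 (-0.93 to 0.43).

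Against the 48 h IC50 again none passed (0.541% of genes tested did). At an unadjusted p under 0.05, 14 had a negative slope (29.8%, against 18.6% of genes tested) and 2 a positive one (4.26%, against 7.75%). The 14 were ORC2, ORC3, ORC4, ORC5, ORC6, GMNN, MCM4, CDC7, DBF4, PRIM1, PCNA, RFC1, RPA1 and RRM1, that is 5 of the 6 ORC subunits, and the 2 were MCM2 and TK1. Nalm16 and Nalm30 had the highest 48 h IC50 of the 13 lines. Both lay under all other lines in ORC2, ORC4, GMNN, MCM4, CDC7, DBF4, PRIM1, RFC1 and RRM1, and above all others in MCM2 and TK1. Slopes of those genes therefore overlap with the contrast of that pair with the other lines. ORC6 had the smallest p (slope -0.08, SE 0.02, adjusted p = 0.0620), followed by DBF4 (-0.26, SE 0.07, adjusted p = 0.0683). TK1 had 0.22 (SE 0.07, adjusted p = 0.0980). Without HPB-ALL, 13 of the 47 passed the test, 11 with a negative slope and MCM2 and TK1 with a positive one, so that 1 line decides this count. That is 27.7% of the 47, against 19.7% of genes tested in the same fit. Without ALL-SIL, 5 passed (ORC4, ORC6, GMNN, DBF4 and RFC1), or 10.6%, against 9.67%. Negative slopes numbered 33 of 47 (70.2%, against 56% of genes tested), 28 without Nalm16 and Nalm30 (against 54.6%), and 25 after quantile normalization (against 43.5%). The slope of DBF4 was 0.01 without Nalm16 and Nalm30.

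**Figure D5:**
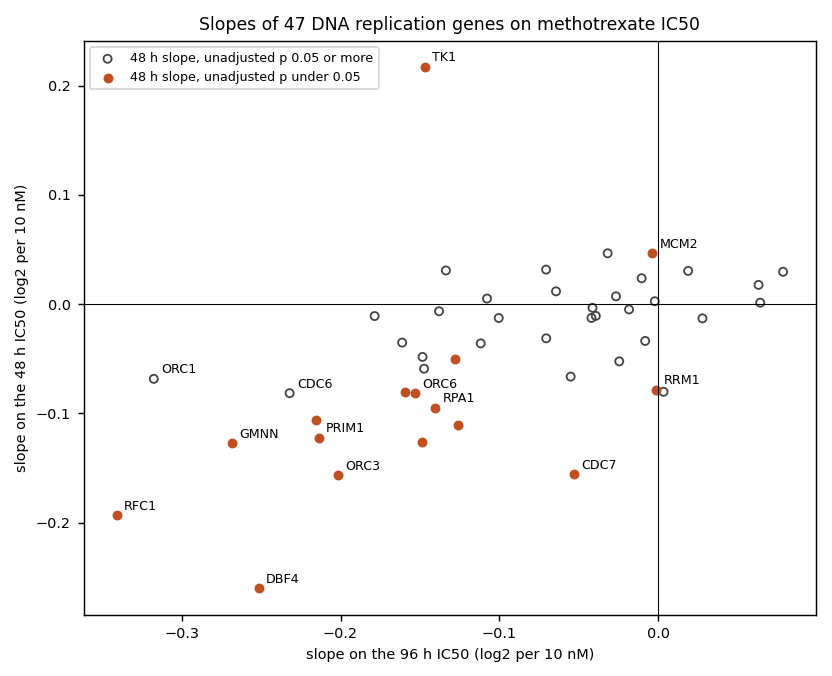
Slope on the 48 h IC50 (vertical axis) against slope on the 96 h IC50 (horizontal axis), both in log2 per 10 nM over 13 lines, for each of the 47 genes, with filled points where the 48 h slope has an unadjusted p under 0.05. Of the points, 41 lie left of 0, DBF4 lies lowest at -0.26 and TK1 highest at 0.22.

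The slope on the 48 h IC50 differed between lineages in 2 of 47 genes (4.26%, against 10.9% of genes tested). The T-ALL minus BCP-ALL difference of slopes was 0.41 in DBF4 (SE 0.06, limma interaction, adjusted p = 0.00458), with slopes of 0.01 within T-ALL and -0.40 within BCP-ALL. In RFC1 it was 0.29 (SE 0.08, adjusted p = 0.0366), with -0.00 within T-ALL and -0.29 within BCP-ALL. Both rest on Nalm16 and Nalm30: without these lines the difference was 0.08 in DBF4 and 0.17 in RFC1 (adjusted p = 0.999 each), and no gene of the 47 passed. With 1 line left out DBF4 passed each time. RFC1 did not pass without Nalm16, REH, ALL-SIL, HPB-ALL, Jurkat, P12-ICHIKAWA or TALL-1 (adjusted p = 0.0618 to 0.110), nor with P12-ICHIKAWA and TALL-1 averaged (0.0619). Without Nalm30, 4 genes passed (ORC4, GMNN, DBF4 and RFC1), or 8.51%, against 12% of genes tested in the same fit. At 96 h the slope difference passed in none of the 47, against 0.00796% of genes tested, and in 8 without Nalm30 (17.0%, against 17.5% of genes tested in the same fit), which were ORC2, ORC3, ORC4, GMNN, CDC7, DBF4, RFC1 and RFC4.

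Other genes of the pathway, outside the 47, were counted the same way. In 10 of 30 further replisome, fork and chromatin assembly genes Nalm16 and Nalm30 both lay under all other lines, against 20.5% of genes tested. In 4 they lay above all others, against 12%. For lineage 1 of the 30 was higher in T-ALL and none lower, against 7.63% of genes tested passing in either direction. The 1 was ASF1A, a histone chaperone that delivers histones behind the fork, with 9.63, 9.90 and 10.32 in T-ALL and 7.21, 8.33 and 9.27 in BCP-ALL (difference 1.66, SE 0.28, adjusted p = 0.00257), and no overlap. DSCC1, part of an alternative clamp loader, had 8.87, 9.02 and 9.53 in T-ALL and 5.89, 8.27 and 8.56 in BCP-ALL (difference 1.43, SE 0.42, adjusted p = 0.0546), also with no overlap. TICRR, which helps to activate origins, had 7.23, 7.46 and 7.61 in T-ALL and 7.53, 7.97 and 8.51 in BCP-ALL (difference -0.57, SE 0.17, adjusted p = 0.0546). DSCC1 passed without 697, Nalm6 or RS4,11, and without both Nalm16 and Nalm30 (difference 0.68, adjusted p = 0.0258), and TICRR without 697 (-0.66, adjusted p = 0.0275). Of 13 S phase regulators, 5 were under all other lines in both Nalm16 and Nalm30 and 0 above. For lineage 1 of the 13 was lower in T-ALL and 0 higher, against the same 7.63%. This was E2F2, an activating E2F, with 8.02, 8.56 and 8.89 in T-ALL and 8.78, 9.51 and 9.95 in BCP-ALL (difference -0.95, SE 0.20, adjusted p = 0.0112), but it did not pass with the mean of its probe sets (adjusted p = 0.109) or the most variable of them (0.206). E2F1 differed by -0.55 (adjusted p = 0.125) and the S phase cyclin CCNA2 by 0.38 (adjusted p = 0.211), or 0.11 without Nalm16 and Nalm30. Of 9 nucleotide and folate-linked genes measured, 2 were under all other lines in both Nalm16 and Nalm30 and 1 above. For lineage none of the 9 passed, against the same 7.63%. The smallest p values there were those of the nucleoside transporter SLC29A1 (0.74, adjusted p = 0.151), the deoxycytidine kinase DCK (0.66, 0.213, and 0.11 without Nalm16 and Nalm30) and the dNTP hydrolase SAMHD1 (-2.003, 0.263).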

How the data were processed

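Log2 values were deposited by the authors, who computed them with the iterPLIER+16 algorithm. The submitters' notes name Affymetrix Expression Console without a version, and no source used here states a scaling between arrays. The methods describe overnight culture and a spin column kit, the labels 30 h and phenol-chloroform extraction before a column. Of 42450 probe sets, 38125 carried 1 gene symbol, 1742 several and 2583 none, and the last 2 kinds were left out. Genes above the array median in at least 3 lines were tested (12560). Lineage differences, slopes on the IC50 and their difference between lineages were fitted with limma 3.58.1 (R 4.3.3), with Benjamini-Hochberg adjustment over all genes at 0.05. Simulated data held 200 genes changed by 1 log2 over the range. Of these, 76 were recovered for lineage, 10 for the 48 h slope and 0 for the 96 h slope. At 2 log2 it was 167, 122 and 99, with 39 for the slope difference at 48 h and 0 for that at 96 h. A gene that did not pass may therefore still differ. The IC50 of each line was read from the study's supplement as a covariate. Doubling times were not used here. The genes, gene lists and tests were chosen with earlier results of these data known. Genes named are those with the smallest p for lineage (5 in each direction and 1 in each role) and for each IC50 (4 in each direction), the 6 largest and 4 smallest SDs, the 3 highest and 3 lowest mean r, 3 genes of each outside list by p for lineage and the 8 genes most like the level. Others named were chosen after their values were seen. Alternatives covered the probe set, scaling, filter, variance model, IC50 scale, lineage as a covariate and left-out lines, and the counts of signs and of lowest or highest lines under other scalings were added after seeing the data. Other steps used Python 3.11.15, pandas 2.3.3 and matplotlib 3.10.9. The number of arrays limits the precision.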

Additional observations from a re-analysis of the deposited data

Results flagged for a closer look

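A line far from the others of its lineage was found in 5 of 64 groups of lines tested. The rule flags about 1 in 20 by chance. The named replication genes were picked from these same data, so that rate may not hold for them. RFC4 was 8.86 in Nalm16, with the next BCP-ALL line at 9.54. HPB-ALL stood apart within T-ALL in 3 genes: PRIM2 at 7.57 (next line 7.88), GINS2 at 8.83 (next 9.59) and ORC6 at 8.59 (next 9.27). POLA2 was 8.84 in Molt4, with the next T-ALL line at 8.44. The slope on the 48 h IC50 differed between T-ALL and BCP-ALL by the interaction test in DBF4 (0.41 log2 per 10 nM, limma adjusted p = 0.00458) and RFC1 (0.29, adjusted p = 0.0366), and in neither without Nalm16 and Nalm30.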

How the results depend on the processing

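No named result passed the test with the opposite sign in any alternative run. Shares below are of the replication genes, against all genes tested in the same fit. For lineage no replication gene passed in the main fit. With the mean of all probe sets 2 passed (RFC3 and RFC4, 4.26% against 8.22%), and with quantile normalization 2 (RFC2 and RFC4, 4.26% against 8.17%). It was 1 with arrays centred on their medians (RFC4, 2.13% against 8.25%) and 3 with an intensity trend and robust eBayes (RFC4, RPA3 and RRM2, 6.38% against 7.55%). Without Nalm16 and Nalm30 it was 1 (RPA3, 2.13% against 5.32%). With each line left out it was between 0 and 5, with 5 without REH (ORC3, PRIM2, RFC4, RPA3 and RRM2, 10.6% against 9.74%). For the 48 h IC50, 1 passed with the most variable probe set (RRM2, 2.13% against 3.36%). Among genes above the array median in all lines 2 passed (ORC6 and DBF4, 4.26% against 5.43%). With each line left out it was 0 to 13, with 13 without HPB-ALL (27.7% against 19.7%). For the 96 h IC50 the count stayed 0 with each line left out (0 to 0). The slope difference at 48 h was passed by 2 genes (4.26% against 10.9%). It was passed by 1 without probe sets ending in _x_at or _s_at (MCM10, among 35 genes left, 2.86% against 10.9%). With P12-ICHIKAWA and TALL-1 averaged 1 passed (DBF4, 2.13% against 7.36%), and without Nalm16 and Nalm30 0 (against 0.422%). With each line left out it was 1 to 4, with 4 without Nalm30 (8.51% against 12%). The slope difference at 96 h was passed by 0 to 8 with each line left out, with 8 without Nalm30 (17% against 17.5%). The group's level in Nalm16 was -0.52 as deposited and -0.19 after quantile normalization. Counts of positive estimates for lineage ran from 26 to 37 over the alternatives. The causes were not tested. No paired analysis was possible because the labels give no replicate numbers and each line has 1 array.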
